A study of Homo sapiens with 6 samples.

Results

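Transcripts of the interleukin-6 (IL6) family and of its shared signalling chain were followed in AC16 cells, with or without CDDO-Me and doxorubicin. The 10 genes, out of 58299 in the deposited count table, were taken by symbol: the cytokines IL6, LIF, IL11 and CLCF1, the receptor chains IL6R, IL6ST, LIFR and OSMR, the transcription factor STAT3 and the inhibitor SOCS3. All 10 were found by Ensembl identifier and all 10 passed the filter on low counts. AC16 is an established human line derived from ventricular heart cells by fusion with transformed fibroblasts. Poly(A)-selected, unstranded RNA-seq libraries came from 3 control samples, kept for 72 h in 0.1% DMSO, and 3 treated samples, given 100 nM CDDO-Me for 24 h and then 100 nM doxorubicin for 48 h. CDDO-Me is a triterpenoid activator of the transcription factor NRF2, and doxorubicin is a topoisomerase II poison used against cancer that is toxic to the heart. Both agents were given to every treated sample, so no difference below can be assigned to one of them. The labels do not say whether the treated cells also had the vehicle, whether CDDO-Me stayed on with doxorubicin, or whether replicates were separate cultures, so the spread behind each p-value may be technical.

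Cytokines of this family act through IL6ST, better known as gp130, a receptor chain that most cells carry. IL6 first binds IL6R and IL11 first binds IL11RA, and each complex then joins a pair of gp130 chains. LIF brings gp130 together with LIFR, and oncostatin M pairs gp130 with OSMR or LIFR. CLCF1 signals through CNTFR, LIFR and gp130. The receptor-bound kinases JAK1, JAK2 and TYK2 then phosphorylate STAT3, which enters the nucleus and switches on target genes, among them SOCS3, whose protein binds gp130 and blocks the kinases. In the heart the pathway is known for cardiomyocyte survival and growth, and IL11 also for fibroblast activation. These libraries report RNA levels and not STAT3 phosphorylation or secreted protein.

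The libraries held 17150259 to 20193957 counts. Markers of heart muscle were close to absent, against the line's origin: of 8 markers 7 had 0 counts in all controls, TNNI3 had 0 in all 6 libraries, and the 8 together came to 0 to 0.172 CPM (counts relative to library size, scaled by TMM) in controls and 0.566 to 1.33 CPM in treated cells. The 8 fibroblast markers together stood at 16010 to 17390 CPM in controls and 7303 to 7717 CPM in treated cells. Of these 7 were called lower, beside 31.2% of all tested genes. The 8 immune markers together went from 4.01 to 5.63 CPM in controls to 7.28 to 8.59 CPM in treated cells, and the 5 endothelial markers from 21.0 to 23.0 CPM down to 10.1 to 10.9 CPM. The endothelial sum follows TEK (20.7 to 7.01 CPM on average). The other 4 had higher treated means: PECAM1 had 20 and 93 counts (edgeR adjusted p = 1.05e-04), VWF 44 and 80 (not called), ERG 1 and 37, and CDH5 1 and 10 counts over the 3 libraries of each group. Among the immune markers LYZ and ITGAM had 0 counts in all controls and 40 each over the treated libraries, and both were called higher (edgeR adjusted p = 8.23e-07 and 7.15e-07), while CD3E had 0 counts in controls and 1 in treated cells. Of the 8 immune markers 6 were tested, with 3 called higher, 1 lower and 2 not called. CSF1R was the 1 called lower (log2 change -0.71, edgeR adjusted p = 0.0479). CD14, not called, also had a lower treated mean (1.21 CPM in controls, 0.948 in treated cells). These marker lists moved with treatment, and their part in the results below was not tested. Without the filter on low counts the median log2 change over 36005 genes was 0.51, against 0.02 over the 15575 filtered genes. Scarce transcripts thus tended to be higher in treated libraries beyond these lists too. In such bulk samples, fewer cells of a type and less RNA per cell cannot be told apart.

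Among the members, 3 of the 4 cytokine transcripts rose, and receptor transcripts fell or stayed close to control. IL11 had the largest change of the 10, about 6-fold, followed by IL6, and LIF and STAT3 rose by less than 1.5-fold. SOCS3, LIFR and OSMR fell, IL6R and IL6ST were called lower by small amounts, calls that total-count scaling ended and for IL6ST turned in sign, and CLCF1 was not called. In edgeR's quasi-likelihood test at an adjusted p below 0.05, 4 members were called higher and 5 lower. Their median log2 change (treated minus control) was -0.04. Over all 15575 genes tested, 63.5% were called, 32.3% higher and 31.2% lower, with a median of 0.02. Only IL6 and IL11 passed 2-fold, as did 10.9% of tested genes upward; 4.62% passed 2-fold downward and no member did. Control and treated libraries did not overlap in 8 of 10 members, against 66.7% of tested genes. A call alone therefore sets these genes little apart from the rest of the table, and their sizes and directions are given below. With libraries scaled by total counts only, the median log2 change of all genes moved from 0.02 to 0.15. Higher genes then made up 63.8% of calls instead of 50.8%. Members were 4 higher and 3 lower in that setting, beside 6355 higher and 3602 lower of all 15575 tested genes.

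**Figure D1:**
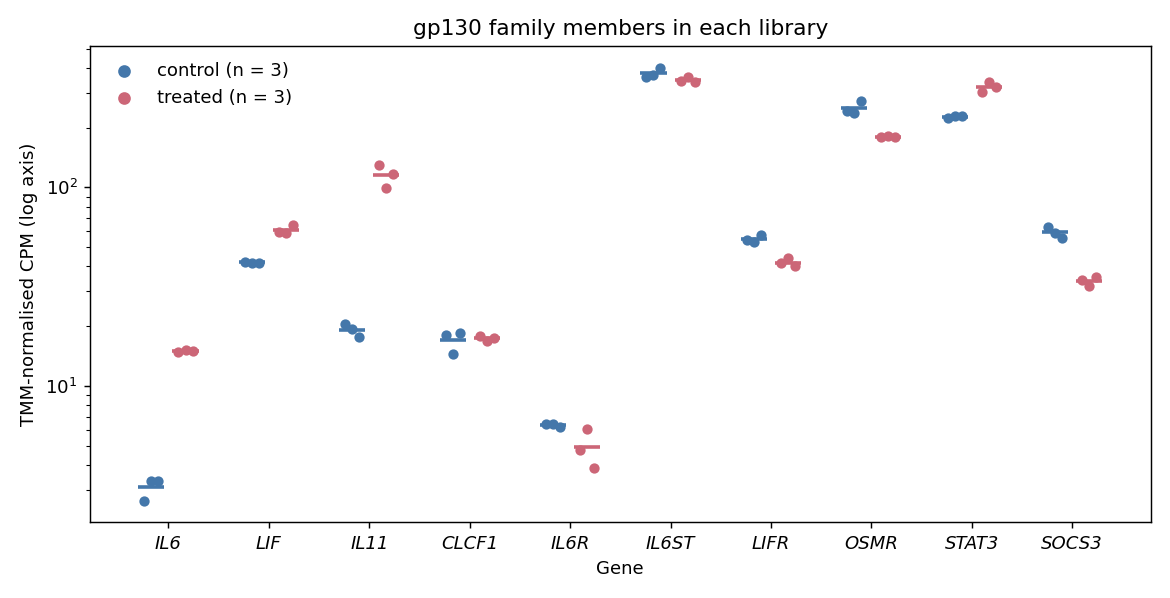
Level of each of the 10 genes in each library as TMM-normalised CPM on a log axis. Blue points are the 3 control and red points the 3 treated libraries, and bars are group means. All treated points lie above all control points for IL6, LIF, IL11 and STAT3 and below them for IL6R, LIFR, OSMR and SOCS3, and the groups overlap for CLCF1 and IL6ST.

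IL11 (ENSG00000095752) encodes interleukin-11, a cytokine linked to fibrosis and platelet formation. It lies on chromosome 19 of GRCh38, 55364389 to 55370463, minus strand, and shares no exon bases with another gene. Its level was 20.5, 19.3 and 17.6 CPM in the controls and 129, 99.5 and 117 CPM in the treated libraries. Every treated library was far above every control, with treated replicate 2 the lowest of its group. The log2 change was 2.59 (SE 0.075, edgeR adjusted p = 4.07e-39), a 6.03-fold rise with a 95% interval of 5.43 to 6.69.

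IL6 (ENSG00000136244), the founding cytokine of the family and a driver of the acute-phase response, lies on chromosome 7, 22725884 to 22732002, plus strand. It was scarce in controls, with 46, 55 and 61 counts, and had 306, 307 and 317 counts in the treated libraries. In CPM this was 2.64, 3.33 and 3.30 against 14.7, 15.1 and 15.0, a narrow treated range well above the controls. The rise was 4.83-fold, with an interval of 3.96 to 5.88 (edgeR adjusted p = 4.4e-22). IL6 shares 20.7% of its exon bases with the antisense gene IL6-AS1, and the libraries do not separate strands. IL6-AS1 itself had 4 to 13 counts in controls and 10 to 17 in treated libraries, few beside those of IL6. How reads in shared bases were counted is not known, so this does not measure the antisense part of the IL6 count.

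The DNA just upstream of a RefSeq start of each of these 2 genes is shown because they are the members that rose most. The stretches come from RefSeq windows (GRCh38.p14) and run 5′ to 3′ on the strand of the gene, with motif matches in capitals. The IL11 stretch is the 250 bases before its start, chr19:55370464-55370713, minus strand. The IL6 stretch, chr7:22726950-22727146, plus strand, ends at position -54 relative to the RefSeq start at 22727200, because the 53 bases after it are exonic in the deposited gene model. That model begins further upstream, at 22725884, so this RefSeq start and the stretch lie inside it.
IL11 upstream: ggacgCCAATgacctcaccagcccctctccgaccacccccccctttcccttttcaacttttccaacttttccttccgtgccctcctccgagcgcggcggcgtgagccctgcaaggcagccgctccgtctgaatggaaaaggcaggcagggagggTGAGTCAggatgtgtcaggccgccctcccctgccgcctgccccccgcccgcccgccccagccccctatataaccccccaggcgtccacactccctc
IL6 upstream: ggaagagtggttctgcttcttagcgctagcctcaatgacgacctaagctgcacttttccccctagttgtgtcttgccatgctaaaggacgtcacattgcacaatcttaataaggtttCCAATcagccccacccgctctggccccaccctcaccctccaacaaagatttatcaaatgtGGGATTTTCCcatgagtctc
In IL11 the capitals mark a CCAAT box and TGAGTCA, a match to the AP-1 motif TGANTCA at positions -96 to -90 relative to the start. In IL6 they mark a CCAAT box and GGGATTTTCC, a match to the NF-kB motif at positions -73 to -64. NF-kB and AP-1 are inflammation- and stress-activated transcription factors. Of 35114 RefSeq windows of 250 bases, 6.57% hold an AP-1 match and 9.96% an NF-kB match. Neither stretch holds a STAT match (TTCNNNGAA; 6.57% of windows) or a match to the NRF2 element core (TGACNNNGC; 10.9% of windows). Both strands were searched, and CCAAT is in 32.0% of windows. A match describes letters and says nothing on binding, and the absence of one covers this window only.

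LIF (ENSG00000128342, chromosome 22, 30240447 to 30246851, minus strand), leukaemia inhibitory factor, is a cytokine best known for holding mouse stem cells undifferentiated. It was the most abundant of the ligand transcripts in controls. Its level was 42.3, 41.7 and 41.9 CPM in controls and 59.9, 58.8 and 64.6 CPM in treated libraries, with a clear gap between the groups. The rise was 1.46-fold (interval 1.33 to 1.59; log2 change 0.54, SE 0.064; edgeR adjusted p = 5.49e-11). Of its exon bases 6.73% are shared with the antisense genes LIF-AS1 and LIF-AS2. LIF-AS2 rose from 12, 16 and 22 counts to 50, 51 and 45 (edgeR adjusted p = 1.69e-04), small numbers beside the 689 to 773 control and 1194 to 1368 treated counts of LIF. As for IL6, this does not measure the antisense part of the LIF count.

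CLCF1 (ENSG00000175505, chromosome 11, 67364168 to 67374177, minus strand), cardiotrophin-like cytokine factor 1, was the ligand without a call. Its level was 18.2, 14.5 and 18.6 CPM in controls and 17.8, 16.9 and 17.4 CPM in treated libraries, and the groups overlapped. The ratio of treated to control was 1.02, with an interval of 0.886 to 1.17 (edgeR adjusted p = 0.84). The interval leaves no room for a rise of the size seen in LIF.

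Scaled by exon length, so that genes can be compared, the order of the ligands changed. In controls the mean length-scaled level (TMM CPM per kilobase of exon) was 10.6 for LIF, 8.64 for CLCF1, 7.16 for IL11 and 1.49 for IL6. CLCF1 and IL11 overlapped over the control libraries and the other neighbours did not. In treated cells IL11 led with 43.1 ± 5.59 (SD, n = 3), ahead of LIF at 15.4 ± 0.774, CLCF1 at 8.80 ± 0.227 and IL6 at 7.22 ± 0.0888. IL6 thus remained the lowest of the 4 cytokines after its rise. Its place below CLCF1 may depend on whether reads in the 20.7% of its exon bases shared with IL6-AS1 were counted, which is not known. Of the summed length-scaled level of 6 ligand genes (these 4 with CTF1 and CNTF), IL11 made up 21.8% ± 1.65 in controls and 51.8% ± 2.70 in treated cells, IL6 4.57% ± 0.744 and 8.75% ± 0.846, and LIF 32.3% ± 1.23 and 18.6% ± 1.35 (SD, n = 3 each). LIF's share is smaller in treated cells although its own level was higher. Exon length here is that of all exons of a gene merged, so a gene with mostly short transcripts is understated.

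**Figure D2:**
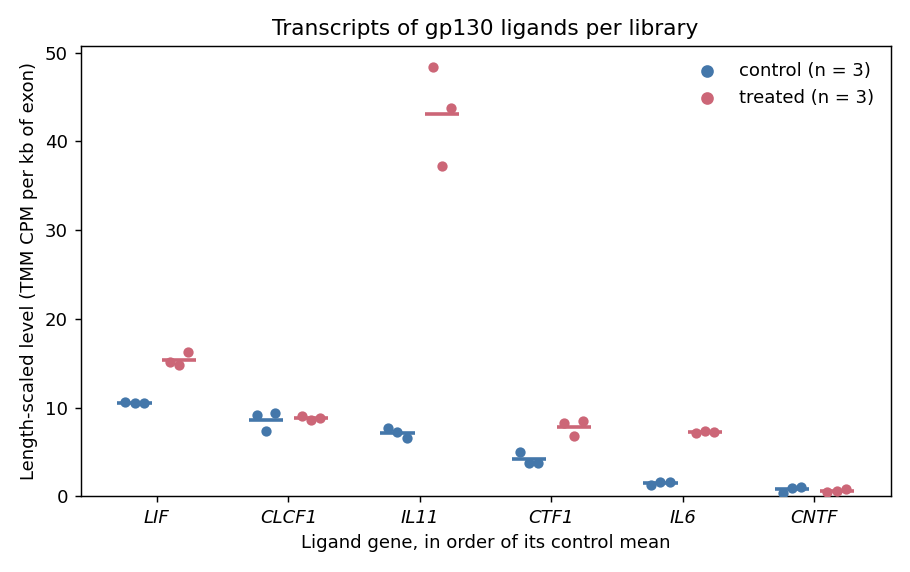
Length-scaled level (TMM CPM per kb of exon, linear axis from 0) of 6 gp130 ligand genes in each library, ordered by control mean. Blue points are controls, red points treated libraries and bars group means; IL11 goes from a control mean of 7.16 to a treated mean of 43.1, above LIF at 15.4.

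On the receptor side the shared chain was by far more abundant than the chain that binds IL6. IL6ST (ENSG00000134352, chromosome 5, 55935095 to 55994993, minus strand) stood at 40.6 ± 2.32 length-scaled units in controls, OSMR at 35.0 ± 2.64, LIFR at 4.64 ± 0.193 and IL6R at 0.982 ± 0.0223 (SD, n = 3). In treated cells they stood in the same order at 37.5 ± 1.22, 25.1 ± 0.248, 3.53 ± 0.161 and 0.759 ± 0.170, with no overlap between neighbours in either group. By length-scaled level IL6R was the lowest of the 10 members in both groups. It had 106 to 114 control counts, more than the 46 to 61 of IL6, and 82 to 123 treated counts.

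OSMR (ENSG00000145623, chromosome 5, 38845858 to 38945596, plus strand), the oncostatin M receptor chain, was at 243, 237 and 272 CPM in controls and 179, 182 and 179 CPM in treated libraries. All treated libraries were below all controls. It fell to 0.718 of control, with an interval of 0.670 to 0.769 (log2 change -0.48, edgeR adjusted p = 6.29e-13). LIFR (ENSG00000113594, chromosome 5, 38474963 to 38608354, minus strand), whose gene lies 238 kb from OSMR, was at 54.0, 53.3 and 57.6 CPM in controls and 41.5, 43.9 and 40.1 CPM in treated libraries. The groups were again apart, and LIFR fell to 0.760 of control (interval 0.694 to 0.833; edgeR adjusted p = 4.24e-07). LIFR shares 5.30% of its exon bases with LIFR-AS1 and OSMR 3.19% with RICTOR. IL6ST shares 8.58% with another annotated gene, ENSG00000262211, and how reads in shared bases were counted is not known.

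IL6ST and IL6R were at the edge of the test. IL6ST was at 361, 369 and 402 CPM in controls and 344, 361 and 340 CPM in treated libraries, and the groups overlapped. Its log2 change was -0.11 (SE 0.047, edgeR adjusted p = 0.0297), and with total-count scaling it was 0.01 (edgeR adjusted p = 0.825), so no direction is given for it. IL6R (ENSG00000160712, chromosome 1, 154405193 to 154469450, plus strand) was at 6.43, 6.41 and 6.17 CPM in controls and 4.77, 6.05 and 3.87 CPM in treated libraries. Treated replicate 2 lay just under the controls and the other two well under them. Its log2 change was -0.37 (SE 0.16, edgeR adjusted p = 0.0416), -0.23 without treated replicate 3 (edgeR adjusted p = 0.263), and the call was also lost without control replicate 1 (0.0729), control replicate 2 (0.0659), control replicate 3 (0.0508) or treated replicate 1 (0.0871). The IL6ST call was lost without control replicate 3 (-0.08, edgeR adjusted p = 0.193), treated replicate 1 (0.0719) or treated replicate 3 (0.138).

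Of the members with a promoter window, LIFR had STAT-motif matches, and these stretches are shown since LIFR is a receptor whose ligand LIF moved the other way. Each runs 5′ to 3′ on the minus strand (RefSeq, GRCh38.p14), is upstream of a different start inside the gene, and holds a match to TTCNNNGAA with 30 bases on each side.
LIFR start at 38595405, chr5:38595532-38595600: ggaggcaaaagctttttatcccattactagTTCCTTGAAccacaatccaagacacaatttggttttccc
LIFR start at 38557467, chr5:38557611-38557679: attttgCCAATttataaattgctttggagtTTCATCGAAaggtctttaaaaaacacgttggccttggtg
Capitals mark TTCCTTGAA in the first, and a CCAAT box and TTCATCGAA in the other. The third LIFR window held none of the 5 motifs searched. Promoter windows were matched for 8 of the 10 members, 11 windows in all. The absence of a STAT match in another member covers its windows only. For SOCS3 these were chr17:78360926-78361175 and chr17:78359668-78359917, minus strand. Neither covers the bases just upstream of 78360077, where the deposited SOCS3 model starts.

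STAT3 and SOCS3 moved in opposite directions. STAT3 (ENSG00000168610, chromosome 17, 42313324 to 42388568, minus strand), the transcription factor activated by all these receptors, was at 223, 229 and 230 CPM in controls and 304, 339 and 319 CPM in treated libraries. All treated libraries were above all controls, a rise of 1.41-fold (interval 1.32 to 1.51; log2 change 0.50, SE 0.048; edgeR adjusted p = 3.67e-14). SOCS3 (ENSG00000184557, also on chromosome 17, 78356778 to 78360077, minus strand), the feedback inhibitor of gp130, was at 63.4, 59.0 and 55.8 CPM in controls and 34.3, 31.8 and 35.3 CPM in treated libraries. It fell to 0.570 of control (interval 0.518 to 0.626; log2 change -0.81, SE 0.068; edgeR adjusted p = 1.87e-16), the largest fall among the members. Neither gene shares exon bases with another gene.

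Ratios between members within a library do not depend on how libraries are scaled. The length-scaled ratio of SOCS3 to STAT3 was 0.916, 0.829 and 0.781 in controls and 0.363, 0.303 and 0.356 in treated libraries, a change to 0.404 of control. The ratio of IL11 to LIF was 0.720, 0.688 and 0.625 in controls and 3.21, 2.52 and 2.69 in treated libraries, 4.12-fold higher. The ratio of IL6 to LIF was 0.141 ± 0.0188 in controls and 0.470 ± 0.0244 in treated cells (SD, n = 3). Relative to IL6ST, both LIFR (0.114 ± 0.00259 against 0.0940 ± 0.00142) and OSMR (0.861 ± 0.0245 against 0.670 ± 0.0152) were lower in every treated library than in any control. For IL6R relative to IL6ST, 0.0243 ± 0.00188 against 0.0202 ± 0.00387, the groups overlapped. In a two-sided exact permutation test of each of the 6 ratios, 5 gave p = 0.1 (0.12 adjusted over the 6), the smallest p that 3 against 3 libraries can give, and IL6R over IL6ST gave an exact p of 0.2. The design cannot take these ratios below that. The 6 ratios were not planned beforehand and combine member levels already given above, so their p-values are no separate support.

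**Figure D3:**
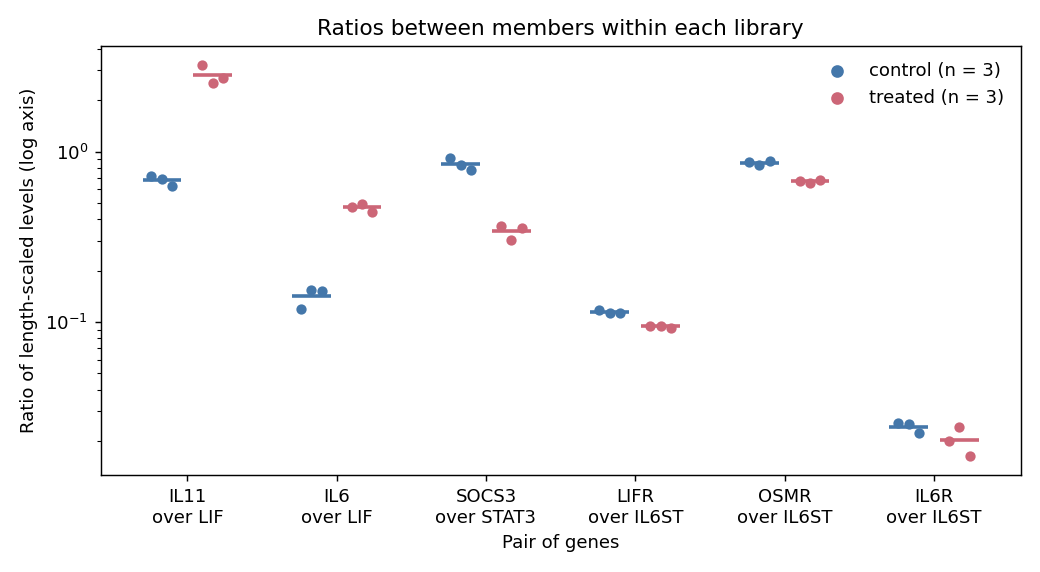
Ratio of the length-scaled levels of 2 members in each library, on a log axis, for 6 pairs; blue points are controls, red points treated libraries and bars group means. The ratios of IL11 and IL6 to LIF are higher in all treated libraries, those of SOCS3 to STAT3 and of LIFR and OSMR to IL6ST are lower, and IL6R over IL6ST overlaps.

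The remaining ligands and receptors of the family, with the receptor-shedding proteases ADAM10 and ADAM17, were read from a list of 12 genes. Of these 8 passed the filter, and 2 were called higher and 4 lower, beside 32.3% and 31.2% of all tested genes. The median change was -0.29 on the log2 scale. EBI3, the subunit that forms interleukin-27 with the IL27 chain, had the largest change of any gene in the pathway lists. It had 37, 57 and 53 counts in controls and 413, 452 and 361 in treated libraries, 7.01-fold higher (interval 5.74 to 8.56; edgeR adjusted p = 2.71e-26). Its partner gene IL27 had 0 counts in controls and 3 in the treated libraries together. IL12A, which encodes the partner of EBI3 in interleukin-35 and was looked up after the value of EBI3 was seen, had 50 to 82 control and 51 to 107 treated counts and was not called (edgeR adjusted p = 0.424).

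CTF1, cardiotrophin-1, a LIFR ligand named for its effect on heart muscle cells, rose from 6.93 ± 1.26 to 13.1 ± 1.47 CPM (SD, n = 3; 1.89-fold, edgeR adjusted p = 8.94e-09). IL11RA, the receptor of IL11, fell from 11.5 ± 0.925 to 7.98 ± 0.181 CPM (log2 change -0.53, edgeR adjusted p = 1.62e-04). The ligand IL11 and its receptor thus changed in opposite directions, though 17.7% of the exon bases of IL11RA lie in exons of other genes. IL27RA, the other chain of the interleukin-27 receptor beside gp130, fell from 15.4 ± 1.84 to 6.86 ± 0.580 CPM (log2 change -1.17, edgeR adjusted p = 7.23e-13). ADAM10, a protease that can release IL6R from the membrane, fell from 199 ± 7.11 to 121 ± 2.30 CPM (log2 change -0.72). OSM, the ligand of OSMR, had 0 counts in controls and 1 in treated cells, IL31 likewise, and CNTFR had 0 and 6. A count of 0 over the 3 controls allows up to 0.0547 CPM, which covers counting error only. The family's genes are partly neighbours: OSM lies 16.0 kb from LIF, and IL31RA, which was not called (log2 change -0.19, edgeR adjusted p = 0.268), 12.2 kb from IL6ST.

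**Figure D4:**
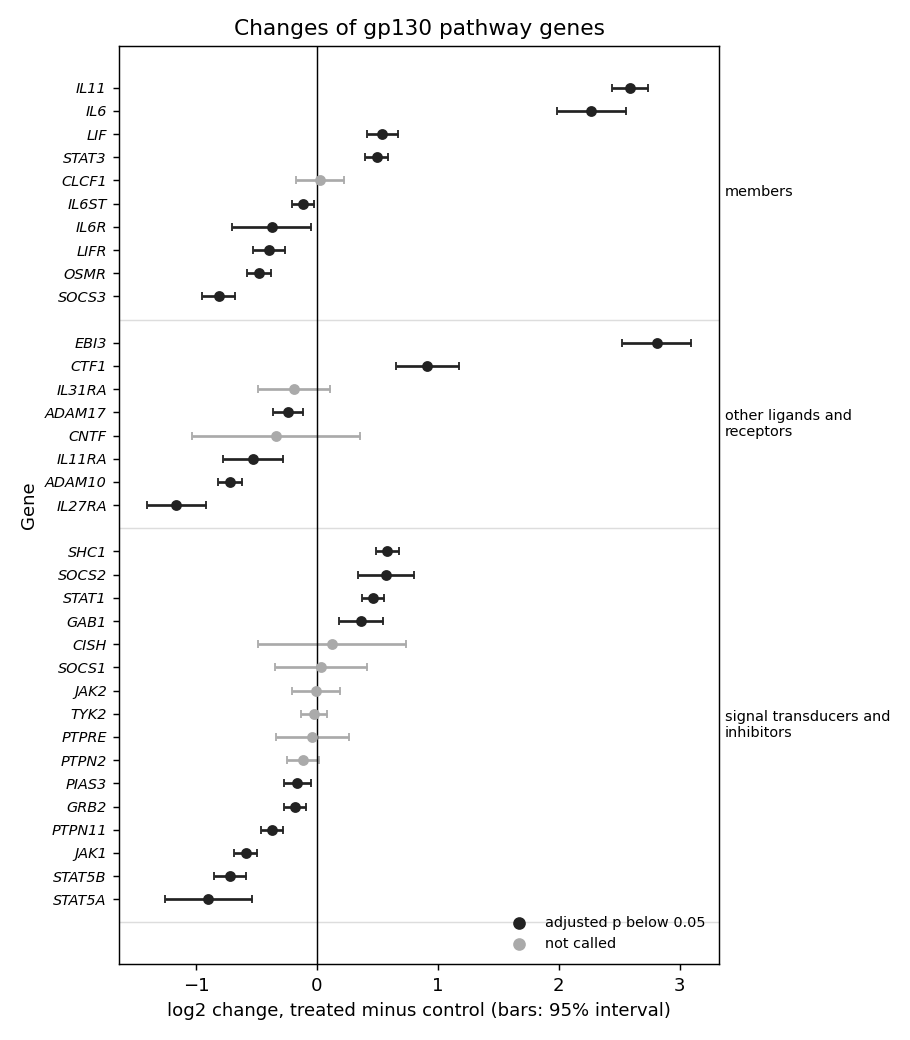
log2 change (treated minus control) with its 95% interval for each tested gene of the members, the other ligands and receptors, and the signal transducers and inhibitors. Black points have an edgeR adjusted p below 0.05 and grey points do not; EBI3, IL11 and IL6 stand furthest to the right, and IL27RA furthest to the left.

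Among 16 kinases, adaptors, STAT factors and inhibitors of the pathway, all tested, 4 were called higher and 6 lower, 0 of them by 2-fold. Over all tested genes 63.5% were called, 32.3% higher and 31.2% lower, so calls alone set this list little apart. The median log2 change was -0.03. JAK1, the kinase that gp130 signalling depends on most, fell from 331 ± 9.90 to 220 ± 6.27 CPM (log2 change -0.59, SE 0.047; edgeR adjusted p = 1.97e-17). JAK2 (-0.01) and TYK2 (-0.02), the other kinases of the receptor complex, were not called, and their 95% intervals ran from -0.21 to 0.19 and from -0.13 to 0.08. STAT5A and STAT5B, which lie next to STAT3 at 1.38 and 36.6 kb, fell by 0.90 and 0.72 on the log2 scale, whereas STAT3 rose. STAT5A was low, at 98 to 107 control and 57 to 76 treated counts. SHC1, an adaptor toward the MAP kinase pathway, rose by 0.58, and SOCS2, an inhibitor best known for growth hormone signalling, rose from 9.93 ± 1.34 to 14.8 ± 1.40 CPM (log2 change 0.57, edgeR adjusted p = 1.94e-05). SOCS1 (0.03, interval -0.35 to 0.42) and CISH (0.12, interval -0.48 to 0.73), further inhibitors of the SOCS family, were not called.

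Genes that STAT3 is known to induce did not move one way. Of a list of 20, 16 passed the filter; 10 were called higher, 7 of them by 2-fold, and 6 lower, 2 of them by 2-fold. Over all tested genes 32.3% were called higher, 10.9% by 2-fold, and 31.2% lower, 4.62% by 2-fold. The median change was 0.51 on the log2 scale. FOS, an AP-1 subunit gene, had 35, 37 and 39 counts in controls and 316, 239 and 255 in treated libraries (log2 change 2.61, edgeR adjusted p = 3.26e-22). CCND1, cyclin D1, rose from 114 ± 10.6 to 330 ± 21.5 CPM and JUNB, another AP-1 subunit, from 14.7 ± 1.67 to 39.1 ± 4.80 CPM. CEBPB, a transcription factor of IL6 and acute-phase genes, rose from 60.6 ± 1.55 to 156 ± 1.74 CPM (log2 change 1.36). BCL2L1, which encodes the survival protein BCL-XL, rose by 1.42 on the log2 scale, with 43.0% of its exon bases shared with ABALON. The other targets called higher were VEGFA (log2 change 1.27), TIMP1 (1.14), IRF1 (0.71), ICAM1 (0.31) and MCL1 (0.17).

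The targets that fell included PIM1, a kinase gene classically induced by STAT3, with a log2 change of -1.22, and BIRC5, the gene of survivin, with -1.29. MYC (-0.96), HIF1A (-0.80), BCL3 (-0.71) and CEBPD (-0.39) were the others. Each gene of this list also answers to other pathways, so the list is no measure of STAT3 activity. The liver acute-phase genes of the list were absent or nearly so: SERPINA3 had 0 counts in all 6 libraries, HAMP 2 and FGB 3 in treated cells, and LBP 0 counts in controls against 5, 4 and 5.

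**Figure D5:**
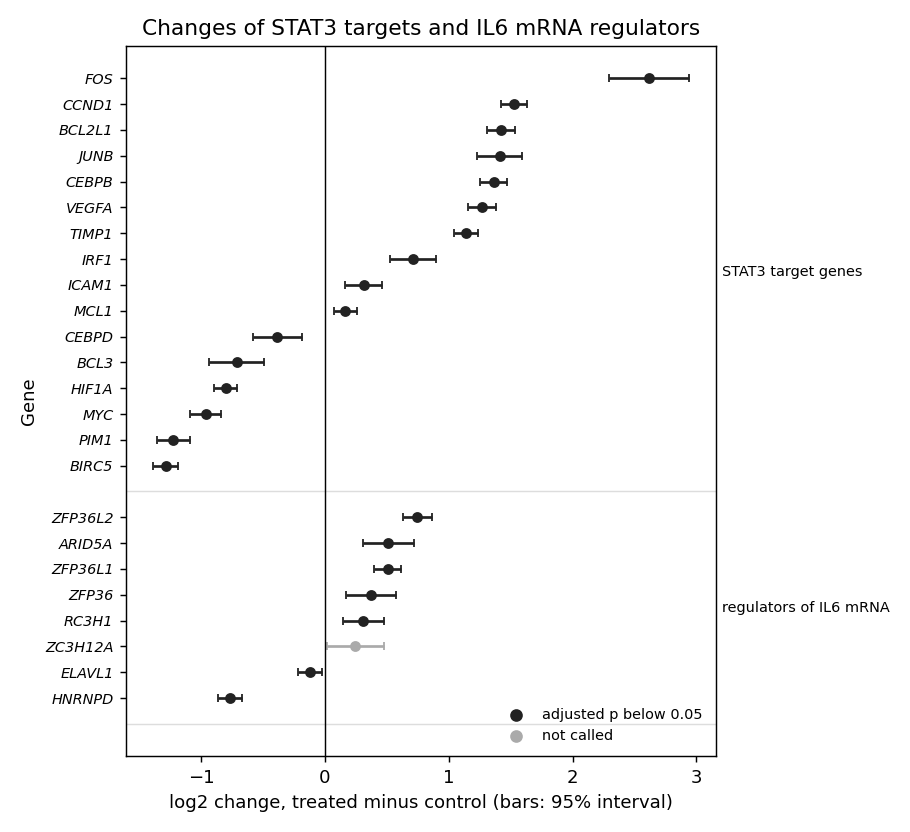
log2 change (treated minus control) with its 95% interval for STAT3 target genes and for genes that regulate IL6 mRNA. Black points have an edgeR adjusted p below 0.05 and the grey point does not; targets run from FOS at 2.61 to BIRC5 at -1.29.

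IL6 mRNA is short-lived, and its half-life is set by RNA-binding proteins. Of 8 such genes 5 were called higher and 2 lower, or 1 lower without treated replicate 1 or 3. Over all tested genes 32.3% were called higher and 31.2% lower. The median change was 0.34 on the log2 scale. Those encoding decay factors of the tristetraprolin family rose: ZFP36 by 0.37, ZFP36L1 by 0.51 and ZFP36L2 by 0.75 on the log2 scale. ARID5A, which stabilises IL6 mRNA, rose from 12.8 ± 1.65 to 18.3 ± 0.0964 CPM (log2 change 0.51, edgeR adjusted p = 1.88e-05). HNRNPD, encoding the RNA-binding protein AUF1, fell from 288 ± 11.9 to 169 ± 7.44 CPM (log2 change -0.77, edgeR adjusted p = 8.82e-22). ZC3H12A, the nuclease Regnase-1 that degrades IL6 mRNA, was not called (0.25, interval 0.02 to 0.47, edgeR adjusted p = 0.0564). Members of opposite action thus rose side by side.

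The genes with profiles closest to those of LIF and IL6 were found among 12206 other protein-coding genes of at least 1 CPM, by the distance between centred log2 CPM values over the 6 libraries. Closest to LIF were TBCC (distance 0.0337), SMG6 (0.0543) and KLF3 (0.0581 in log2 units), with log2 changes of 0.56, 0.55 and 0.54. Closest to IL6 were GCH1 (0.148), which encodes the first enzyme of tetrahydrobiopterin synthesis, KLHL24 (0.166) and ASTN2 (0.181). GCH1 went from 10.2 ± 1.15 to 46.5 ± 1.18 CPM (SD, n = 3). With 2 groups such likeness mostly reflects the size of the group difference.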

How the data were processed

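Counts per Ensembl gene in 6 libraries were used as the authors deposited them: whole-number counts, not normalised, with exon coordinates and gene lengths per the file header. STAR, SAMtools, Subread and featureCounts were used with hg38 (GRCh38), per the submitters' processing notes; versions, annotation release and counting options are not given in the sources used here. Libraries were unstranded, per the labels' protocols, so antisense and overlapping genes cannot be told apart; shared exon bases were computed with bedtools 2.31.1.

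Genes were filtered with filterByExpr (minimum count 10), scaled by TMM and tested with edgeR 4.0.16 (glmQLFit, glmQLFTest; R 4.3.3), Benjamini-Hochberg adjusted over all 15575 genes, threshold 0.05. The SE is the log2 change over the square root of F; intervals are 95%. Code was tested on simulated counts. Alternatives used other scalings and filters, DESeq2 1.42.0, voom in limma 3.58.1, a replicate block, each library left out, an adjusted p of 0.01 and glmTreat at 1.5-fold. Replicate pairs differed beyond sampling noise (chi-square per degree of freedom 3.00 to 4.01).

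Members and lists were chosen with earlier results of these data known. In each list the 5 called genes with the largest change were named, and genes with 0 counts; other genes of the lists, antisense genes and IL12A were named after their values were seen. The result of 1 gene of the ligand and receptor list is not reported here and is left out of its counts. Promoters are from RefSeq (GRCh38.p14).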

Additional observations from a re-analysis of the deposited data

How the results depend on the processing

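The calls of IL6, LIF, IL11, LIFR, OSMR, STAT3 and SOCS3 held under all 14 alternatives that test against no change at 0.05. Members called higher stayed at 4 there, and those called lower were 3 with upper-quartile scaling, total-count scaling or an adjusted p of 0.01, 4 with DESeq2 (IL6R lost, adjusted p = 0.0874) or at least 1 CPM in 3 libraries (IL6ST lost, edgeR adjusted p = 0.0545), and 3 to 5 with a library left out (3 without control replicate 3 or treated replicate 1 or 3). The calls lost were those of IL6R and IL6ST; the log2 change of IL6ST turned to 0.0125 with total counts, and that of the uncalled CLCF1 ran from -0.0898 (without control replicate 2) to 0.0813 with a library left out. Tested against 1.5-fold with glmTreat, IL6, IL11 and SOCS3 stayed called: 2 members higher and 1 lower, beside 1852 genes higher and 1141 lower of all tested. There the other ligands and receptors were called lower 2 times, signal transducers 0 higher and 1 lower, and regulators of IL6 mRNA 1 higher and 1 lower. Regulators of IL6 mRNA called lower were 1 with upper-quartile scaling, total counts or an adjusted p of 0.01, and 1 to 2 with a library left out (ELAVL1, log2 change -0.12). Same-numbered libraries showed no shared deviation from their group means (correlations -0.0225 to -0.00714), which does not settle whether they were handled together. With the replicate block 4 members were higher and 5 lower, and 4892 genes higher and 4761 lower. Depth limits precision most for IL6, at 46 to 61 control counts, and IL6R, at 82 to 123 treated counts.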

Other observations

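PTPRC, the pan-leukocyte surface marker, had 22, 19 and 17 counts in controls and 69, 80 and 89 in treated libraries (edgeR adjusted p = 1.49e-08). CD14 had 10 to 30 and 19 to 21 counts and was not called. CSF1R had 22 to 47 and 15 to 36 counts and was called lower, with overlapping groups (edgeR adjusted p = 0.0479). TEK, the angiopoietin receptor gene, had 336 to 395 control counts and 138 to 152 treated counts (log2 change -1.56), and PECAM1 had 2, 3 and 15 control and 25 to 40 treated counts.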
